A study of Mus musculus with 30 samples.

Results

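Mir144, Mir451a and Mir486 are miRNA hairpins that are abundant in the red cell lineage, and their reads were followed through 30 small RNA libraries of mouse cortex. The members are 3 of the 2202 miRNA hairpins of GENCODE vM21. A read was given to a member only if its whole sequence matched that hairpin exactly in the sense direction. The cortex came from mice of 6 months of age, either wild type (WT) or 5XFAD (AD). The AD mice were hemizygous and the WT mice were their littermates on a C57BL/6J background, with both sexes used. The transgenes of the 5XFAD mouse are driven by the Thy1 promoter, which is active in neurons. Traditional sncRNA-seq covered 7 WT and 7 AD libraries, in which RNA of 15-50 nt went directly into library construction. PANDORA-seq covered 8 WT and 8 AD libraries, in which T4PNK (an enzyme that repairs RNA ends) and AlkB (an enzyme that removes base methyl groups) acted first.

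A miRNA is normally cut from its hairpin by Drosha and then by Dicer, and either strand of the stem may enter an Argonaute protein. Mir451a is the known exception: its short hairpin bypasses Dicer, is sliced by Argonaute 2 in the 3′ strand of the stem, and is then trimmed from the 3′ end. Its reads are therefore expected from the 5′ strand, and intermediates of the trimming continue past the loop. Mir144 is processed from the same primary transcript by Dicer. Mir486 lies within Ank1, which encodes the erythrocyte membrane protein ankyrin 1, and it is also known from skeletal and heart muscle. In a bulk tissue, fewer red cells and less miRNA per cell cannot be told apart, and whether the mice were perfused is not given in the sources used here.

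The hairpins are shown first because the read lengths below are positions in them (GENCODE vM21, GRCm38, plus strand). Mir144 (ENSMUSG00000065401.1) occupies chr11:78073005-78073070 and Mir451a (ENSMUSG00000070065.1) follows at chr11:78073170-78073241. Mir486 (ENSMUSG00000070084.3) is at chr8:23142555-23142682, inside Ank1 and on the same strand. Capitals mark the mature sequences of RefSeq (GRCm38.p6) in Mir144 and Mir451a, and the most-read sequence of each arm in Mir486.
Mir144: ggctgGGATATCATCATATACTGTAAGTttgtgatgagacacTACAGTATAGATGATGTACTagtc
Mir451a: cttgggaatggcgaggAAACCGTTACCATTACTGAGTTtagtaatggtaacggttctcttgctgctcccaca
Mir486: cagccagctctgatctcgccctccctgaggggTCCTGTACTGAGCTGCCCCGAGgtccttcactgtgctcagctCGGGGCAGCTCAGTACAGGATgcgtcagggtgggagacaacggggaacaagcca

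The predicted minimum-energy fold placed the terminal loop of Mir451a at bases 35 to 38, within the annotated mature sequence at bases 17 to 38. The loop of Mir144 was at bases 31 to 36 and that of Mir486 at bases 66 to 69, outside the mature intervals. The seeds (bases 2 to 8, in capitals) show that no pair of these mature sequences shares a seed; the Mir486 sequences are written in the DNA letters of the reads.
miR-451a: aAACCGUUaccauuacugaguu
miR-144-5p: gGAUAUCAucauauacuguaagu
miR-144-3p: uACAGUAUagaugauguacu
miR-486-5p, most-read sequence: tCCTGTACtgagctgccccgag
miR-486-3p, most-read sequence: cGGGGCAGctcagtacaggat

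Mir451b and Mir3107 lie opposite Mir451a and Mir486 on the minus strand. Mir451a shared 0 of its 25445 traditional-seq reads and 0 of its 10324 PANDORA-seq reads with Mir451b. In contrast, Mir486 shared 93.8% of its 13856 traditional-seq reads and 97.7% of its 336574 PANDORA-seq reads with Mir3107, whose reads cannot be told apart from these. Every Mir486 value below therefore stands for both hairpins.

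The libraries held 9370669 to 17053412 reads in traditional-seq and 54926347 to 105876141 reads in PANDORA-seq. Reads that matched any miRNA hairpin made up 35.9% to 50.3% of the traditional-seq libraries and 1.51% to 5.54% of the PANDORA-seq libraries. Neuronal miRNAs identified the tissue: 8 listed hairpins of Mir124a, Mir9 and Mir128, with each read split over the hairpins it matched, summed to 87614 to 291798 RPM (reads scaled to 1e6 reads of the library) in traditional-seq and to 1670 to 6881 RPM in PANDORA-seq. Reads of 20 nt or more within 12 red cell mRNAs, among them the globins Hba-a1 and Hbb-bs, were present in all 30 libraries, at 3.51 to 39.96 RPM in traditional-seq and 18.02 to 283 RPM in PANDORA-seq. Labels do not say whether libraries of the same group came from separate mice, but the study counts its sequencing groups in mice, and p-values measure the spread between these libraries.

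Mir451a was by far the better measured of the chromosome 11 pair. In traditional-seq its level in WT ran from 27.3 RPM through a median of 194 to 265 RPM, and in AD from 33.9 RPM through 137 to 241 RPM. In PANDORA-seq, WT ran from 6.23 through 7.40 to 13.1 RPM and AD from 6.65 through 7.58 to 8.51 RPM. The WT and AD ranges overlapped in both protocols, whereas all 16 PANDORA-seq libraries were below the lowest traditional-seq library. The low end in traditional-seq consisted of 4 libraries, WT replicate 6 at 27.3 RPM and AD replicates 3, 4 and 5 at 65.1, 33.9 and 36.2 RPM. The other 10 lay between 137 and 265 RPM.

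Mir144 was scarce, with 5 to 75 reads per traditional-seq library and 32 to 148 per PANDORA-seq library. Its traditional-seq level ran from 1.16 through 4.34 to 6.32 RPM in WT and from 0.408 through 3.63 to 6.47 RPM in AD. Its PANDORA-seq level ran from 0.557 through 0.883 to 1.80 RPM in WT and from 0.610 through 0.806 to 1.29 RPM in AD. The genotypes overlapped in both protocols, and the lowest traditional-seq libraries were again AD replicates 5 and 4 and WT replicate 6.

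Mir486 had its highest levels in PANDORA-seq. Its traditional-seq level ran from 41.5 through 100.4 to 131 RPM in WT and from 26.1 through 75.8 to 99.3 RPM in AD. Its PANDORA-seq level ran from 72.9 through 108 to 268 RPM in WT and from 83.6 through 192 to 1629 RPM in AD. The high end belonged to AD replicates 1, 6 and 7, at 1629, 720 and 335 RPM, and these 3 libraries were above every WT library.

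**Figure D1:**
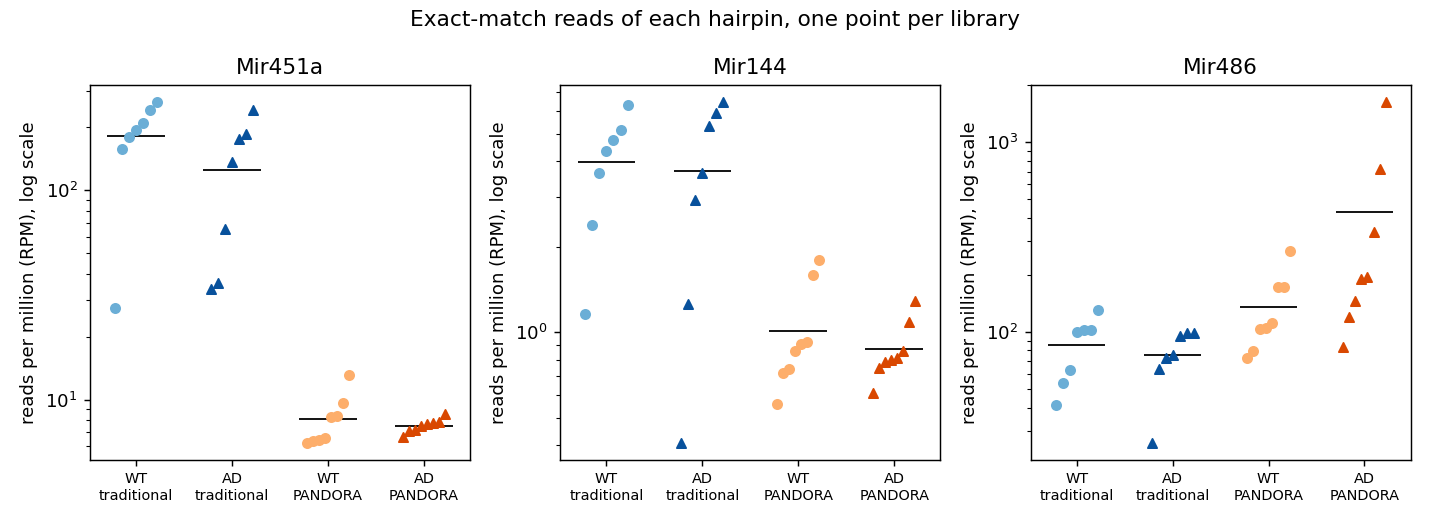
Level of each hairpin in RPM (log scale) in the 4 groups, with 1 point per library (circles WT, triangles AD) and a line at the group mean. Mir451a in PANDORA-seq lies below all traditional-seq libraries, and 3 AD PANDORA-seq libraries of Mir486 lie above all WT libraries.

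The first comparison asked whether the AD cortex differed from WT. Neither Mir451a, Mir144 nor Mir486 passed the test in either protocol. In traditional-seq the log2 fold change (AD over WT) was -0.52 ± 0.45 (SE) for Mir451a, -0.0043 ± 0.45 for Mir144 and -0.20 ± 0.35 for Mir486. The adjusted p values of edgeR's quasi-likelihood test were 0.996 for Mir451a, 0.998 for Mir144 and 0.996 for Mir486. Of 613 hairpins tested, edgeR called 0 at an adjusted p under 0.05 (0.0%), and 8 (1.31%) were below 0.05 before adjustment. DESeq2 called 0, as did the likelihood ratio test. On the RPM scale the mean of Mir451a was 182 ± 77.3 RPM in WT and 125 ± 81.4 RPM in AD (SD, n = 7 each), with an exact permutation p of 0.319.

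In PANDORA-seq the log2 fold change was -0.20 ± 0.26 for Mir451a, with an edgeR adjusted p of 0.681, and -0.28 ± 0.30 for Mir144, with 0.633. Mir486 had a log2 fold change of 1.38 ± 0.54, an unadjusted p of 0.0198 and an edgeR adjusted p of 0.156. Without AD replicates 1, 6 and 7, left out after the data were seen, the log2 fold change of Mir486 was -0.09 ± 0.40 in edgeR. On the RPM scale it was 0.17 without them (exact permutation p = 0.610). These 3 libraries held the highest Mir486 levels, so leaving them out lowers the difference in any case. With all libraries the mean RPM of Mir486 was 136 ± 65.4 in WT and 427 ± 527 in AD (SD, n = 8 each), with an exact permutation p of 0.0695 on the log scale. This p was 0.0409 without WT replicate 3, 0.0426 without AD replicate 2 and 0.0216 without AD replicate 5, all exact permutation values. Without AD replicate 1 the log2 fold change in edgeR was 0.72 ± 0.45 with an unadjusted p of 0.124. edgeR called 0 of 838 hairpins (0.0%), and 187 (22.3%) were below 0.05 before adjustment. Leaving out 1 library gave 46 calls without AD replicate 5, 5 without WT replicate 8 and 1 without AD replicate 7. The likelihood ratio test called 7 and DESeq2 called 6, and Mir486 was not called by either, with adjusted p values of 0.0895 and 0.0719.

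The genotype effect was also compared between protocols. The difference of the log2 fold changes (PANDORA-seq minus traditional-seq) was 1.58 ± 0.65 for Mir486, with an unadjusted p of 0.0197 and an edgeR adjusted p of 0.414. It was 0.47 ± 0.54 for Mir451a and -0.12 ± 0.57 for Mir144, with adjusted p values of 0.797 and 0.984 in edgeR. Of 987 hairpins edgeR called 0 (0.0%), and 84 (8.51%) were below 0.05 before adjustment. Both DESeq2 and the likelihood ratio test called 0. Without AD PANDORA-seq replicates 1, 6 and 7, left out for their high Mir486, the difference for Mir486 was 0.04 ± 0.58. Over the libraries whose code occurs in both protocols it was 0.98 ± 0.59 with an unadjusted p of 0.107 in edgeR. Those libraries include AD PANDORA-seq replicates 6 and 7 but not replicate 1, which held the highest Mir486 level.

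The AD libraries with high Mir486 also held much Mir206, a miRNA of skeletal muscle that was looked at after these values were seen. Mir206 reached 191, 77.0 and 31.2 RPM in AD replicates 1, 6 and 7, against 0.470 to 4.16 RPM in the other 13 PANDORA-seq libraries. Mir1a-1, also of muscle, was at 0.841, 1.40 and 1.36 RPM in them, within the 0.603 to 3.53 RPM of the other libraries, and Mir133a-1 was at 0.198, 1.28 and 0.437 RPM, against 0.259 to 1.53 RPM. Mir133b was at 0.165, 0.231 and 0.109 RPM, against 0.00975 to 0.196 RPM. A list of 6 muscle hairpins, added after values were seen, had 5 tested and 0 called in the PANDORA-seq genotype comparison, with a median log2 fold change of 0.74 against -0.069 for all hairpins. In that list Mir1a-1 and Mir1a-2, and Mir133a-1 and Mir133a-2, had nearly the same levels and are not separate values. Over all 16 PANDORA-seq libraries Mir486 and Mir206 had Pearson's r = 0.84 and Spearman's rho = 0.48 (permutation p = 0.00036 and 0.0604), and without the 2 farthest libraries r was 0.45. These p values do not account for the choice of Mir206 after the high libraries were seen, so they are no test of the relation. Muscle miRNAs were also read in traditional-seq, where Mir206 ran from 0.601 to 58.2 RPM and Mir1a-1 from 268 to 7850 RPM over both genotypes. In the 14 traditional-seq libraries r of Mir486 and Mir206 was -0.36 and rho -0.42 (permutation p = 0.209 and 0.133). Over the other 13 libraries, a selection made after the values were seen, r and rho were both 0.03 (permutation p = 0.922 and 0.920), and r was -0.30 without the 2 farthest of them. The part of muscle RNA in the Mir486 values was not tested. The codes of AD PANDORA-seq replicates 6 and 7 also occur in traditional-seq, as AD replicates 5 and 6, though no label says that a shared code is the same mouse. Mir486 stood there at 95.7 and 73.1 RPM, within the range of that group. Red cell mRNA reads in AD PANDORA-seq replicates 1, 6 and 7 were 48.28, 100.5 and 35.6 RPM. The WT libraries ran from 48.31 to 152 RPM, so that replicate 6 lay within their range and replicates 1 and 7 just or clearly below it. Of the other AD PANDORA-seq libraries, replicates 2, 3 and 5 were also below the WT range, at 41.07, 18.02 and 29.95 RPM. Replicates 4 and 8 were not, at 283 and 67.66 RPM. Low red cell mRNA was therefore not particular to the libraries with high Mir486.

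**Figure D2:**
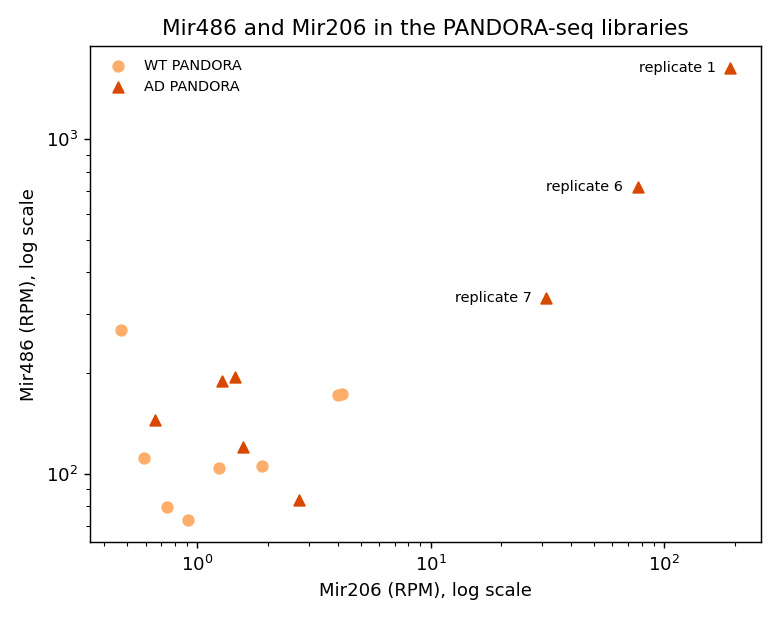
Mir486 against Mir206 in the 16 PANDORA-seq libraries, both in RPM on log scales (circles WT, triangles AD). AD replicates 1, 6 and 7 lie apart at 335 to 1629 RPM of Mir486, and r is 0.84 over the 16 libraries and 0.03 over the other 13. Mir206 was chosen after the values were seen.

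The second comparison asked how PANDORA-seq changes what is seen of these miRNAs, and the answer for Mir451a and Mir144 depended on what the reads were scaled to. Relative to all reads, Mir451a fell from a mean of 154 ± 81.9 RPM (SD, n = 14) to 7.81 ± 1.70 RPM (n = 16), a log2 difference of -3.98. The permutation p of 1e-05 is the smallest that 100000 resamples give. Mir144 fell from 3.84 ± 1.98 to 0.943 ± 0.343 RPM, a log2 difference of -1.70 with a permutation p of 2e-05. Mir486 rose from 80.5 ± 28.7 to 282 ± 393 RPM, a log2 difference of 1.27 with a permutation p of 0.00033, but with 1-mismatch reads added the difference was 0.32 (permutation p = 0.389).

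Relative to hairpin reads alone the picture was another for the chromosome 11 pair. Hairpin reads were counted at all read lengths, not only those of mature miRNAs, and this scale was not recomputed by read length. Mir451a was at 355 ± 180 RPM of hairpin reads in traditional-seq and at 315 ± 161 RPM in PANDORA-seq, a log2 difference of -0.04 with a permutation p of 0.890. Mir144 was at 8.99 ± 4.51 and 38.7 ± 23.2 RPM of hairpin reads, so that its direction turned to a log2 difference of 2.14 (permutation p = 1e-05). Mir486 was higher in PANDORA-seq on this scale too, with a log2 difference of 5.22 (permutation p = 1e-05). In edgeR with TMM normalization, 875 of 987 hairpins (88.7%) were called, 537 higher (54.4%) and 338 lower (34.2%) in PANDORA-seq. Before adjustment, 89.4% were below 0.05. With total reads as library size the calls were 360 higher and 499 lower, and the median log2 fold change of all hairpins moved from 1.19 to -0.70.

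On the TMM scale Mir451a had a log2 fold change of -3.03 ± 0.28 (edgeR adjusted p = 3.53e-12) against a median of 1.19 for all hairpins. Mir144 was at -0.80 ± 0.29 and Mir486 at 2.81 ± 0.35, with edgeR adjusted p values of 0.00975 and 3.35e-09. Without AD PANDORA-seq replicates 1, 6 and 7 the value of Mir486 was 2.0 ± 0.30. With reads of 18 to 26 nt alone, Mir451a was at -2.60 ± 0.27 against a median of 0.30 for all hairpins. The call for Mir144 was lost in 4 alternatives, in 1 of which the value turned positive: 0.18 when reads that match several hairpins were split among them. With 88.7% of hairpins called, a call by itself says little about a member. Within the same library the ratio of Mir451a to Mir144, which needs no scaling, had a geometric mean of 39.6 in traditional-seq and 8.57 in PANDORA-seq. That is a log2 difference of -2.21 (permutation p = 1e-05, adjusted p = 4.5e-05 over 9 ratios tested). The traditional-seq ratios ran from 22.2 to 88.6 and the PANDORA-seq ratios from 5.34 to 11.7, with no overlap. None of the 6 ratio comparisons between genotypes passed, with adjusted permutation p values of 0.156 to 0.809.

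On the TMM scale 54.4% of all hairpins were higher and 34.2% lower, shares that turned with total reads as library size, and the lists below are to be read against them. The reference also depends on read length. With reads of 18 to 26 nt alone, 383 of 821 hairpins were higher and 308 lower, and the median log2 fold change was 0.30. Other miRNAs listed as abundant in red cells or specific to vessel walls gave context for these values. Of 11 listed red cell hairpins, among them Mir16-1 and Mir93, 2 were higher and 8 lower in PANDORA-seq (TMM scale), with a median log2 fold change of -2.49 against 1.19 for all hairpins. Of 5 vascular hairpins, Mir126a and Mir126b of endothelium and Mir143, Mir145a and Mir145b of smooth muscle, 3 could be tested and all 3 were lower, with a median of -3.91. All 3 tested oligodendrocyte hairpins (of 4) and both tested myeloid hairpins (of 3) were lower, with medians of -2.25 and -2.51. Of 8 neuronal hairpins, 5 were lower and 0 higher, with a median of -3.12. A read counted for each hairpin it matched, so listed hairpins that give the same mature sequence are not separate values. In the genotype comparisons, 0 hairpins of these lists passed in either protocol (background 0.0%), and the medians of these lists lay between -0.23 and 0.31.

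Read length was the next question, since Mir451a is trimmed rather than diced. In all 14 traditional-seq libraries the most common Mir451a read was 21 nt long, and in all 16 PANDORA-seq libraries it was 20 nt. Nearly every read began at the annotated 5′ end, 99.9% of 25438 reads of the 5p arm in traditional-seq and 99.9% of 10324 in PANDORA-seq. The 3′ ends are listed because they carry the difference, with bases beyond the annotated 22 nt in capitals.
18 nt: aaaccgttaccattactg
20 nt: aaaccgttaccattactgag
21 nt: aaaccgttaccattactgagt
22 nt: aaaccgttaccattactgagtt
25 nt: aaaccgttaccattactgagttTAG
26 nt: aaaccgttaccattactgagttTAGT
30 nt: aaaccgttaccattactgagttTAGTAATG

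In traditional-seq the 21 nt form held 90.2% of Mir451a reads, and minor peaks stood at 18 nt (3.78%) and 26 nt (1.66%). The 26 nt form was seen in 13 of 14 libraries, and 14 reads of 29 nt and 3 reads of 30 nt marked the far end. In PANDORA-seq the 20 nt form held 83.7%, and the minor peaks were at 17 nt (3.78%) and 25 nt (0.494%). The 25 nt form was seen in all 16 libraries and the 26 nt form in 0. The peaks of PANDORA-seq thus each lay 1 nt below those of traditional-seq.

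**Figure D3:**
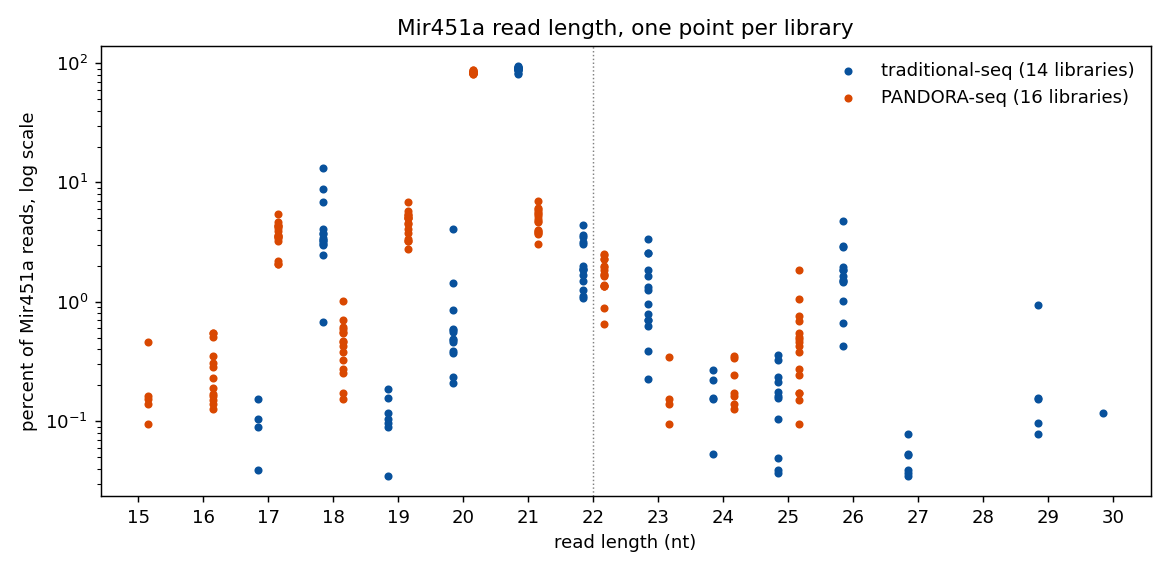
Percent of Mir451a reads at each read length (log scale), with 1 point per library and lengths without a read not drawn. The peaks are at 18, 21 and 26 nt in traditional-seq and at 17, 20 and 25 nt in PANDORA-seq, and the dotted line is the annotated length of 22 nt.

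The mean length of Mir451a reads at the main 5′ end was 21.01 ± 0.163 nt (SD, n = 14) and 19.9 ± 0.0422 nt (n = 16), a difference of -1.07 nt (permutation p = 1e-05). A like shift was seen across miRNAs. Of 181 other mature 5′ ends with at least 1000 exact reads in both protocols, the most common length was 1 nt shorter in PANDORA-seq for 141 and equal for 19. It was longer for 13 and more than 1 nt shorter for 8, and the median difference in mean length was -0.841 nt. Mir144 at its main 5p start shifted by -1.66 nt and Mir486 by -0.523 nt (permutation p = 1e-05 for Mir486, exact permutation p = 2.01e-06 for Mir144). Among exact matches, which leave out tailed reads, the most common length of Mir486 was 22 nt in all 16 PANDORA-seq libraries and in 13 of 14 traditional-seq libraries.

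Reads of Mir451a that passed over the loop were found in every library. They made up 834 of 25445 reads (3.28%) in traditional-seq and 66 of 10324 (0.639%) in PANDORA-seq, and their longest were 30 and 25 nt. Of these, 340 and 5 reads ended at base 39, 1 T past the annotated end, where a U tail on the 22 nt form would look the same. Without them the shares were 1.94% and 0.591%. AD traditional-seq replicate 5 had no read that ended past base 39, since its longest Mir451a read was 23 nt. WT PANDORA-seq replicate 5 and AD PANDORA-seq replicate 3 had 1 read each that passed the loop. The shares past the loop were not recomputed with 1 nt added to PANDORA-seq lengths. With that base, the 172 PANDORA-seq reads of 22 nt would also pass the loop. The share of 26-30 nt was 1.88% ± 1.22 (SD, n = 14) against 0 of 10324 PANDORA-seq reads, which allows up to 0.0291%. That difference passed with an adjusted permutation p of 9.25e-05 (37 share tests), and it kept its direction and its call when 1 nt was added to all PANDORA-seq lengths. The other length classes did not: 15-19 nt reads were 4.398 points more frequent in PANDORA-seq (adjusted permutation p = 0.000617) and 23-25 nt reads 0.883 points less frequent (0.0191), but with 1 nt added both turned direction. Traditional-seq libraries held reads of 15 to 42 nt and PANDORA-seq libraries reads of 15 to 45 nt. No Mir451a read of 31 nt or longer was seen in either protocol, which allows up to 0.0118% of traditional-seq and 0.0291% of PANDORA-seq reads, for counting error only.

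Mir144 had 0 of 633 traditional-seq and 0 of 1258 PANDORA-seq reads across its loop. Mir486 had 0 of 13856 and 7 of 336574. The loops of Mir144 and Mir486 lie outside their mature intervals, so reads of mature length could not cross them. These counts therefore cannot be compared with those of Mir451a, whose loop lies within the mature sequence. Mir144 reads came from both strands of its stem, with 55.1% of reads on the 5p arm in traditional-seq and 52.7% in PANDORA-seq, as did those of Mir486 at 94.5% and 96.7%. For Mir451a the 5p arm held all but 7 of 25445 traditional-seq reads and all 10324 PANDORA-seq reads. The 5p share of Mir486 was higher in PANDORA-seq by 2.56 points on average over libraries (adjusted permutation p = 9.25e-05). Exact matching left out tailed reads, which were 55.9% of all reads at the main 5p start in traditional-seq and 7.54% in PANDORA-seq, and the arm share was not recomputed with them. None of the length, arm or 5′ end shares differed between genotypes, with adjusted exact permutation p values of 0.169 or more.

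Compared with other hairpins of the same library, Mir451a was not long overall. Reads of 23-30 nt made up 3.42% ± 2.01 of Mir451a (SD, n = 14) and 16.4% ± 2.36 of all other hairpin reads in traditional-seq, and the share was lower in all 14 libraries (exact permutation p = 0.000122). In PANDORA-seq the shares were 0.658% ± 0.518 and 9.29% ± 1.79, lower in all 16 libraries (permutation p = 3.05e-05). A low share was not particular to Mir451a. Mir486 had 1.19% in traditional-seq and 0.109% in PANDORA-seq, lower than the others in every library. Mir144 had 33.4% against 16.5% in traditional-seq, higher in all 11 libraries with enough reads, and 1.36% in PANDORA-seq, lower in all 16. For reads of 26-30 nt, a class added to this comparison after the lengths were seen, the order turned in traditional-seq: 1.88% for Mir451a against 0.293% ± 0.124 for the others, higher in 13 of 14 libraries (exact permutation p = 0.000366). Of 353 other hairpins with at least 1000 reads, 90 had a still higher pooled share of this class. In PANDORA-seq it was lower in all 16, 0 against 2.22% ± 0.589.

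Many reads ended in bases that the hairpin does not encode. A changed last base cannot be told apart from a base added to a shorter read, and both counted as tails. An added base that equals the next base of the hairpin cannot be told apart from the template and counted as untailed. The bases after the 20, 21 and 22 nt forms of Mir451a are all T, so U tails on them could not be seen, and the same holds after the annotated 23 nt of miR-144-5p, whereas after the 22 nt form of Mir486 comes G (C in Mir3107). A C after that form matches Mir3107 but counted as a tail, in 1119 of 29603 traditional-seq reads (3.78%). Among reads that began at the main 5′ end, the share with an added tail of 1-4 nt was 56.5% ± 6.69 for Mir486 in traditional-seq (SD, n = 14) and 6.66% ± 1.04 in PANDORA-seq (n = 16). The lowest traditional-seq library was at 43.4% and the highest PANDORA-seq library at 9.39%. For Mir451a the shares were 9.27% ± 3.67 and 1.77% ± 0.455, and for Mir144 13.7% ± 8.35 (n = 10) and 2.80% ± 2.06 (n = 13). All 3 differences passed, with adjusted permutation p values of 9.25e-05 for Mir486 and Mir451a and 0.00037 for Mir144. A read that lost a 1-nt tail would count as untailed. The tail shares were not recomputed for the 1 nt shift in read length, and its part in these differences was not tested. Across the 181 other mature 5′ ends, the median tailed share was 26.2% in traditional-seq (quartiles 19.1 and 37.3) and 3.82% in PANDORA-seq (quartiles 1.80 and 9.81). In traditional-seq Mir486 lay above the upper quartile. Mir451a and Mir144 were below the lower, but U tails on their main forms could not be seen.

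**Figure D4:**
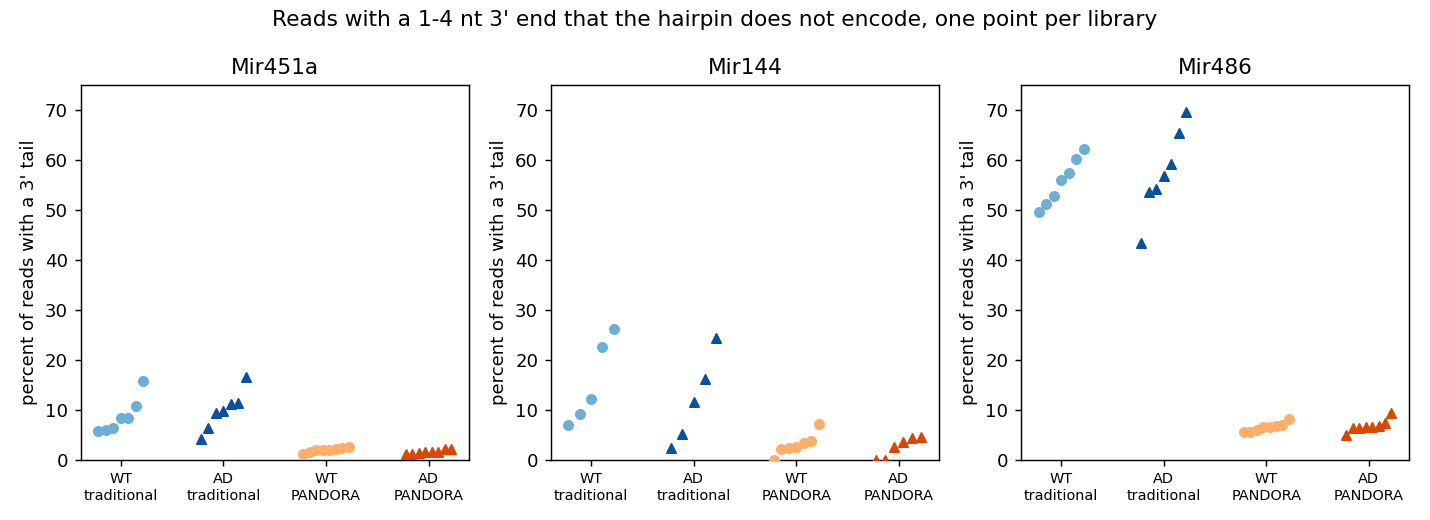
Percent of reads at the main 5′ end that carry a 3′ tail of 1-4 nt not encoded by the hairpin, with 1 point per library (circles WT, triangles AD; libraries with fewer than 20 such reads left out). Mir486 lies at 43.4% to 69.7% in traditional-seq and at 5.04% to 9.39% in PANDORA-seq.

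The leading tail of Mir486 was a single U, read as T, on the full 22 nt form, shown with the added base in capitals.
miR-486-5p with added base: tcctgtactgagctgccccgagT

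This form held 9427 of 29603 reads (31.8%) in traditional-seq and 8092 of 350007 (2.31%) in PANDORA-seq. It outnumbered the untailed 22 nt form in 13 of 14 traditional-seq libraries, with a median ratio of 1.33 and a range of 0.748 to 2.33. In PANDORA-seq the ratio ran from 0.0385 to 0.0836. Of the tails that could be seen on Mir451a in traditional-seq, a C after 20 encoded bases was the most frequent, in 1911 of 28118 reads (6.80%). For Mir144 a C was the most frequent 1-nt tail, in 24 of 374 reads.

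Because an exact match excludes these forms, the Mir486 level was recomputed with reads of 1 mismatch added. The means became 167 ± 52.3 RPM in traditional-seq (SD, n = 14) and 315 ± 451.3 RPM in PANDORA-seq (n = 16). The log2 difference fell to 0.32 with a permutation p of 0.389, so the higher RPM in PANDORA-seq was not called with these reads. The other scales were not recomputed with them. The share of tailed reads did not differ between genotypes for any member, with adjusted exact permutation p values of 0.293 or more.

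The last comparison asked whether the 3 hairpins varied together across libraries. Mir451a and Mir144 did. In traditional-seq Pearson's r of the log2 RPM values was 0.88 and Spearman's rho 0.77 (n = 14, adjusted permutation p = 0.00081 and 0.00546 over 6 pairs). In PANDORA-seq r was 0.82 and rho 0.81 (n = 16, adjusted permutation p = 0.00081 and 0.00234). Without the 2 libraries farthest from the median of Mir451a, r was 0.86 and 0.66. Within WT r was 0.91 and 0.84, and within AD 0.90 and 0.80, for traditional-seq and PANDORA-seq. Among the 10 traditional-seq libraries above 100 RPM of Mir451a, r was 0.48 (permutation p = 0.159).

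**Figure D5:**
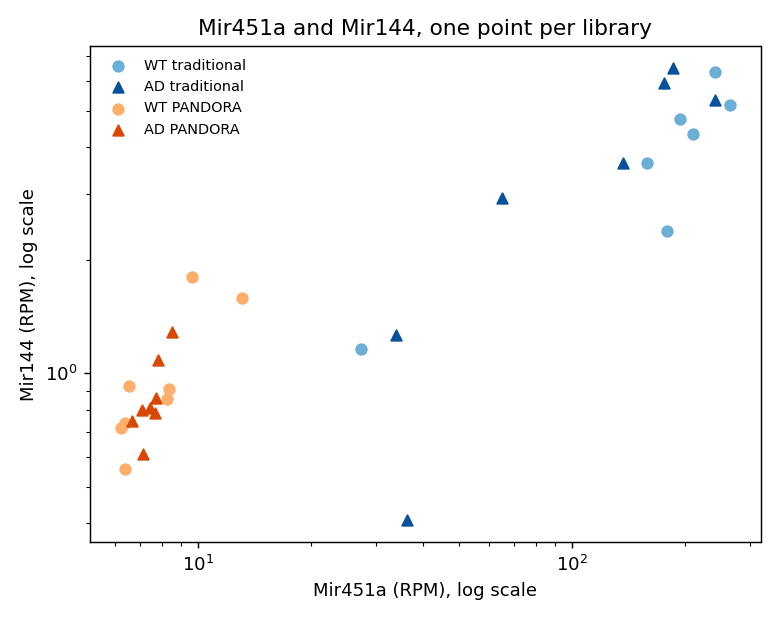
Mir144 against Mir451a in RPM on log scales, with 1 point per library and colours for the 4 groups. The points rise together within each protocol (r = 0.88 in traditional-seq and 0.82 in PANDORA-seq), with traditional-seq at higher levels of both.

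Mir486 did not follow the pair. Its r with Mir451a was -0.26 in traditional-seq and -0.25 in PANDORA-seq, and with Mir144 -0.29 and -0.34 (adjusted permutation p = 0.374 for each r). Without the 2 farthest libraries r with Mir451a was -0.29 and -0.00085, and r with Mir144 was -0.0080 and -0.56. Within WT r with Mir451a was -0.38 and -0.60, and within AD -0.27 and 0.099. Within WT r with Mir144 was -0.23 and -0.69, and within AD -0.37 and -0.14. The corresponding rho values were -0.28 and -0.34, and -0.36 and -0.42, with adjusted permutation p values of 0.207 to 0.322. No relation of a member with the red cell mRNA reads passed. Over 6 relations r lay between -0.26 and 0.54 and rho between -0.36 and 0.68. Adjusted permutation p values were 0.254 or more for r and 0.0585 or more for rho. The highest r and rho were those of Mir486 in traditional-seq (r = 0.54, rho = 0.68, n = 14), with unadjusted permutation p values of 0.0423 and 0.00975. Red cell mRNA reads numbered only 41 to 474 per traditional-seq library.

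Over the 14 sample codes that occur in both protocols, the level in traditional-seq was also set against the level in PANDORA-seq. No label ties a code to a mouse, and the deviations of libraries with the same code correlated at -0.18 to 0.29 (median 0.0058). For Mir451a r was 0.27 and rho 0.38, for Mir486 0.38 and 0.43, and for Mir144 -0.16 and -0.10, with adjusted permutation p values of 0.534 to 0.598 for r and 0.263 to 0.725 for rho. Without the 2 libraries farthest from the median these r values were 0.08, 0.42 and -0.06.

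The hairpins most like Mir451a over the 14 traditional-seq libraries were Mir136, Mir181a-2, Mir381, Mir3059 and Mir434, with Spearman's rho of TMM-scaled counts of 0.84, 0.84, 0.83, 0.82 and 0.82. These were the top 5 of 335 hairpins that averaged at least 100 reads, whose median rho was 0.01. Mir144 reached 0.81, with 9 of the 335 above it, and Mir486 -0.20, with 198 above it. All these values share the same libraries and the same scaling factors.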

How the data were processed

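Small RNAs were read from 30 cortex libraries. The authors deposited, per library, each distinct read sequence with its count after adapter trimming, and these deposited counts are raw, with no genome coordinates and no molecular identifiers. The labels name build mm39, and the study's methods name SPORTS1.1 and reads of 15-45 nt.

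Reads were matched to the 2202 hairpins of GENCODE vM21 (GRCm38), exactly and in sense, and a read counted for each hairpin it matched. A tail was 1-4 nt beyond at least 18 matching bases. edgeR 4.0.16 (quasi-likelihood, TMM, filterByExpr with a minimum count of 10) was fitted over all hairpins, with Benjamini-Hochberg adjustment; DESeq2 1.42.0 was an alternative. RPM levels, on log2(RPM + 0.1), and shares, in libraries with at least 20 reads of the member, were compared by two-sided permutation tests. They were exact where a group had fewer than 10 libraries (3432 or 12870 splits with all libraries of a protocol) and used 100000 resamples otherwise. Genotype tests of Mir144 shares had down to 5 libraries per group, and so fewer splits. A paired sign-flip test compared Mir451a with other hairpins. Folds came from RNAfold 2.7.2. Scripts were tested on simulated data. Intervals and limits of 0 counts (3 reads) cover counting error only. Named hairpins were the 3 members, the 5 most like Mir451a (at least 100 reads on average) and the marker lists; the 6 muscle hairpins, among them Mir206 and Mir1a-1, were added after values were seen. The 3 most-read sequences and the leading tail of each member were the sequences considered. Members and lists were chosen with earlier results of these data known. Settings added after seeing the data were the comparisons without AD PANDORA-seq replicates 1, 6 and 7, PANDORA-seq lengths plus 1 nt, reads of 26-30 nt against other hairpins, reads at annotated mature 5′ ends, the 10 libraries above 100 RPM, red cell mRNA and Mir206 as other measures, and sample codes shared between protocols.

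Replicate numbers did not pair libraries: deviations of same-numbered libraries correlated at -0.36 to 0.40 in traditional-seq and -0.39 to 0.46 in PANDORA-seq. No libraries were identical.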

Additional observations from a re-analysis of the deposited data

Results flagged for a closer look

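In 9 of 72 groups of values, 1 library stood apart from the rest of its group by Dixon's test at 95%, which flags about 1 in 20 groups by chance. The Mir486 level of AD PANDORA-seq replicate 1 was 1629 RPM. AD traditional-seq replicate 5 stood apart in 3 shares: 13.1% of its Mir451a reads were of 15-19 nt and 86.7% of 20-22 nt, and 90.9% of its Mir486 reads were of the 5p arm. WT PANDORA-seq replicate 6 had 7.35% of Mir451a reads of 15-19 nt, and AD PANDORA-seq replicate 4 had 2.20% of 23-25 nt. WT PANDORA-seq replicate 4 had 66.7% of Mir144 main-arm reads at the most used 5′ end and 95.8% of Mir486 reads on the 5p arm, and AD PANDORA-seq replicate 6 had 94.6% of Mir486 reads on the 5p arm. The causes of these differences were not tested.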

How the results depend on the processing

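Over 85 results, 258 of 280 settings other than leaving out 1 library kept the direction and the side of the threshold. The others follow, and the cause was not tested where the setting itself does not show it. The traditional-seq genotype difference of Mir144 (log2) was 0.024 with no filter and 0.086 with reads of 18-26 nt. The PANDORA-seq genotype difference of Mir486 was -0.094 in edgeR without AD replicates 1, 6 and 7, but 0.17 on the RPM scale. The protocol difference of Mir144 was -0.24 with no filter, 0.18 with reads split over hairpins, -0.16 with reads of 18-26 nt and -0.59 with the replicate block by file-name code. Genotype calls were 1 with no filter in traditional-seq, and 7 (likelihood ratio test), 6 (DESeq2) and 1 (split reads) in PANDORA-seq. With hairpin reads as denominator the protocol difference was 2.14 for Mir144 and -0.044 for Mir451a, and with 1-mismatch reads 0.32 for Mir486. With 1 nt added to PANDORA-seq lengths, the Mir451a classes of 15-19, 20-22 and 23-25 nt differed by -0.178, 1.23 and 0.311 points. Within 2 nt of the main 5′ end, the 5′ end share differed by 0.0469 points between protocols for Mir451a and by 0.0138 between genotypes for Mir486 in traditional-seq. In PANDORA-seq r of Mir451a and Mir144 was 0.80 within AD, and r of Mir451a and Mir486 was 0.010 per hairpin read and 0.10 within AD. Leaving out 1 library at a time (1283 values, of which 49 turned direction and 9 others changed side or size) moved the calls from 0 to 1 in traditional-seq (without AD replicate 3) and from 0 to 46 in PANDORA-seq (5 without WT replicate 8, 46 without AD replicate 5, 1 without AD replicate 7). For each result with such a change the range is given, AD minus WT within a protocol or PANDORA-seq minus traditional-seq. On the log2 scale the ranges were Mir486 edgeR log2 fold change, traditional -0.32 to 0.025, Mir144 edgeR log2 fold change, traditional -0.25 to 0.18, Mir451a edgeR log2 fold change, PANDORA -0.33 to 0.017, Mir144 level in RPM, traditional -0.59 to 0.083, Mir451a level in RPM, PANDORA -0.12 to 0.037, Mir486 level in RPM, traditional -0.32 to 0.071, Mir486 level in RPM, PANDORA 0.69 to 1.30. For shares, in points, they were Mir451a 15-19 nt, traditional -1.53 to 0.607, Mir451a 20-22 nt, traditional -1.39 to 0.458, Mir451a 20-22 nt, protocol -2.08 to -1.33, Mir451a 23-25 nt, traditional -0.0772 to 0.521, Mir451a 23-25 nt, PANDORA -0.0721 to 0.253, Mir451a 26-30 nt, traditional -0.215 to 0.581, Mir451a reads at the annotated 5' end, traditional -0.0363 to 0.00242, Mir451a reads at the annotated 5' end, PANDORA -0.0529 to 0.0316, Mir144 main-arm reads at the most used 5' end, PANDORA -1.77 to 2.24, Mir486 reads of the 5p arm, traditional -0.0055 to 0.859, Mir486 main-arm reads at the most used 5' end, traditional -0.0326 to 0.0344, Mir144 reads with a 3' tail, PANDORA -1.01 to 0.183, Mir451a reads with a 3' tail, traditional -0.0728 to 2.23, Mir486 reads with a 3' tail, traditional -0.206 to 4.16, Mir486 reads with a 3' tail, PANDORA -0.0887 to 0.532. For log2 ratios they were Mir451a/Mir144, PANDORA -0.020 to 0.14, and Mir486/Mir144, traditional -0.33 to 0.65. With the replicate number as a block, which did not pair libraries, edgeR called 0 hairpins in either protocol, and the log2 fold change of Mir486 in PANDORA-seq was 0.86. The arm rule by annotated mature overlap was not run for Mir486. Depth limits Mir144 most, with 5 to 148 reads per library.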
